A study of Mus musculus with 16 samples.

Results

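Of the 25697 probes of Illumina MouseRef-8 v2 BeadChips, 99 were selected on their own log2 values because their signal in the hippocampus was higher in every array of HA mice than in any array of LA mice. A probe was included where its lowest log2 value over the 8 HA arrays exceeded its highest value over the 8 LA arrays and where the HA mean was over 0.4 above the LA mean. The rule was met by 101 probes, and those of Hmgn2 and Noct were left out. The MHC class I genes were to be left out too, and 0 of the probes that met the rule carried such a name. Of the 99 probes, 95 carry a gene symbol and name 91 genes, and 4 carry none, so that their identity could not be checked. Since HA and LA values chose these probes, the HA minus LA difference of a member is given as a description with no test.

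HA and LA mice are 2 lines of male Swiss-Webster mice, bred for high or low swim stress-induced analgesia, the loss of pain sensitivity after a forced swim. The groups were HA mice given desipramine (DMI), HA mice given saline, LA mice given DMI and LA mice given saline, with 4 arrays each. DMI, a tricyclic antidepressant that blocks the reuptake of noradrenaline, was injected i.p. at 7.5 mg/kg/day as 21 injections, and the hippocampi were collected 2 days later from mice whose labelled age was 15 weeks. Per the study's methods, RNA of 3 mice was combined for each array. Each line is 1 breeding population, so that differences fixed by selection and differences fixed by chance cannot be told apart.

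A bead array reads each transcript by short probes, and a gene may have 1 probe or several. Where several probes read the same transcript of a gene, a change in its level moves all of them, while probes to different transcripts or ends of a gene can move apart. Lines bred apart for many generations come to carry long stretches of different chromosomes, in which neighbouring genes are inherited together. For these reasons the other probes of each member gene and the chromosomal positions of the members were examined beside their values.

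The mean signal ran from 240 to 421 (median 367) on HA arrays and from 247 to 369 (median 280) on LA arrays, and 13252 to 13701 probes were detected on HA arrays, against 12900 to 13886 on LA arrays. Detected means a detection p under 0.05 against the negative controls of the same array. A BeadChip of this type holds several arrays, and which array lay on which chip is not given in the sources used here, so that the part of the chip in the line differences was not tested. Arrays correlated with r of 0.989 to 0.996 within a group and 0.981 to 0.992 between lines. Markers of hippocampal principal cells were detected for 11 of 13 genes measured, and so were genes of neighbouring tissue, with 11 of 11 for the choroid plexus and 14 of 15 for thalamus and habenula. In pooled tissue, more cells of a type and more RNA per cell cannot be told apart.

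Over all probes, 239 (0.93%) were higher in every HA array and 288 (1.12%) were lower in every HA array, whatever the size. With a difference over 0.4 they were 101 (0.393%) and 134. The members' differences ran from 0.40 to 1.53 with a median of 0.55 on the log2 scale, against a median of -0.0007 over all probes. Of the 99, 8 differed by over 1, 55 by 0.5 to 1 and 36 by 0.4 to 0.5. The gap between the lowest HA array and the highest LA array was 0.0088 to 0.90 (median 0.13), and the SD over the 8 arrays of a line was 0.046 to 0.35 in HA and 0.044 to 0.70 in LA. All 99 were detected on all 8 HA arrays, and 88 on all 16 arrays. Just inside the size limit stood Acaa1a, H2bc15 and Pcbp2 with 0.404, 0.403 and 0.402, and just outside it Kptn, Mrpl10 and Acad9 with 0.3996, 0.398 and 0.396.

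The region around the start of the gene is shown for 3 of the member genes in which every detected probe was higher in HA, either as a member or by the test of other probes. These are Sema5a, whose 2 probes are both members, Fgf10 and Gpx8. The sequences are from RefSeq on GRCm38.p6, 300 bases each and mostly before the start of the gene, 5′ to 3′ on the strand of the gene. Capitals mark the GC box, GGGCGG or its reverse complement CCGCCC, searched on both strands with overlaps allowed. Sema5a lies at chr15:32244563-32244862 (+ strand), Fgf10 at chr13:118714449-118714748 (+ strand) and Gpx8 at chr13:113046339-113046638 (- strand).
Sema5a: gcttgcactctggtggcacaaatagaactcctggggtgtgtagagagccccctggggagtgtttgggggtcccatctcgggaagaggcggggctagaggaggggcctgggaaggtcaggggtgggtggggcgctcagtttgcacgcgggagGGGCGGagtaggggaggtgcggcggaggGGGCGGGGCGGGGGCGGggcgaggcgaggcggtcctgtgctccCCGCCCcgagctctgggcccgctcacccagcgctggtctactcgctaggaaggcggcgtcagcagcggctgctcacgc
Fgf10: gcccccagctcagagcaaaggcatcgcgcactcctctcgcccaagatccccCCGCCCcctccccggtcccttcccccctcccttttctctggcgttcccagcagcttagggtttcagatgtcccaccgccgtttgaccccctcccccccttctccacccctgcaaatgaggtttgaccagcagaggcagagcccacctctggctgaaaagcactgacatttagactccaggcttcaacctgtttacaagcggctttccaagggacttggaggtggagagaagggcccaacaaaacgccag
Gpx8: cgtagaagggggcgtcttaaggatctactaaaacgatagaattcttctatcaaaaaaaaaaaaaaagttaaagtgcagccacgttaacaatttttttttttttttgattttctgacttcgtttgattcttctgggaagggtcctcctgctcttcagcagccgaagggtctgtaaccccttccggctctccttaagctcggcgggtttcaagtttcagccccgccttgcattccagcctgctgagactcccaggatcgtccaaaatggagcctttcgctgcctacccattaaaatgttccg
The box occurs 5 times in the Sema5a window, 1 time in that of Fgf10 and 0 times in that of Gpx8. Promoter windows were found for 73 of the 91 member genes, and 67.1% of them hold the box, against 63.7% of 7976 windows of other detected genes and 35.9% of all 27025 windows. The motif CCAAT, or its reverse complement ATTGG, was found in 43.8% of the member windows, 38.6% of those of other detected genes and 37.9% of all.

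Among the genes of membrane traffic and the lysosome, Tmem106b, a membrane protein of the lysosome, had the largest difference of all members. Its log2 signal was 8.56, 8.74 and 8.86 in HA and 6.61, 7.25 and 7.66 in LA, with values by line always given as the lowest, the median and the highest of the 8 arrays of a line. HA exceeded LA by 1.53 ± 0.11 (± SE of the limma estimate). HA arrays lay within a narrow band, while LA arrays spread over more than 1 log2 unit and 1 of them did not detect the probe. Tmem87a, a protein of the Golgi membrane, had 8.29, 8.56 and 8.66 in HA and 6.77, 7.24 and 8.26 in LA, a difference of 1.19 ± 0.12. Here 1 saline-labelled LA array came close to the HA arrays. Vamp8, a SNARE protein of late endosomes, had 7.50, 7.75 and 7.84 in HA and 6.81, 7.14 and 7.46 in LA, a difference of 0.59 ± 0.07.

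The other 7 members of this role had differences of 0.41 to 0.75. Dennd10, of late endosomes, had 8.14, 8.32 and 8.64 in HA and 7.58, 7.84 and 8.12 in LA, and 2 further probes read it. The tetraspanin Cd151 had 7.88, 8.04 and 8.15 in HA and 7.46, 7.65 and 7.69 in LA. The PQ-loop protein Pqlc3 was a dim probe, with 6.91, 7.01 and 7.15 in HA and 6.51, 6.60 and 6.88 in LA, and was detected on 2 of the LA arrays. The torsin Tor1b, detected on 4 LA arrays, exceeded LA by 0.75 ± 0.05, and Trappc2, a subunit of a vesicle tethering complex, Rab18, a small GTPase of the endoplasmic reticulum and lipid droplets, and Kdelr2, a receptor that returns proteins to the endoplasmic reticulum, by 0.48 ± 0.06, 0.48 ± 0.05 and 0.42 ± 0.06.

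Among secreted and guidance factors the differences were 0.53 to 1.42 with a median of 0.76. Ecrg4 encodes the precursor of a secreted peptide that the choroid plexus makes in abundance. It had 9.25, 9.45 and 9.90 in HA and 7.26, 7.85 and 9.12 in LA, a difference of 1.42 ± 0.12, and its LA arrays were the most spread of all members (SD 0.70, n = 8). Sema5a, a transmembrane semaphorin that guides axons, had 2 members. One had 9.70, 9.83 and 10.08 in HA and 7.76, 8.84 and 9.54 in LA (a difference of 1.01 ± 0.12). The other had 10.23, 10.41 and 10.69 in HA and 8.98, 9.56 and 10.22 in LA (a difference of 0.85 ± 0.09), and on both the LA arrays spread more widely than the HA arrays. Fgf1 and Fgf10 are growth factors of the fibroblast growth factor family. Fgf1 had 8.07, 8.31 and 8.74 in HA and 7.15, 7.63 and 7.87 in LA (a difference of 0.76 ± 0.08). Fgf10 had 8.61, 8.67 and 8.86 in HA and 7.82, 8.19 and 8.31 in LA (a difference of 0.53 ± 0.05). The cytokine genes Il33, an alarmin, and Tgfb2, of the TGF-beta family, differed by 0.57 ± 0.07 and 0.54 ± 0.07.

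Among 5 genes of the proteasome and of ubiquitin transfer, Psmd12, a subunit of the lid of the proteasome's regulatory particle, stood out with 9.66, 9.83 and 10.04 in HA and 8.42, 8.65 and 8.79 in LA, a difference of 1.19 ± 0.06. Its lowest HA array lay 0.87 above its highest LA array. Psmb6, a catalytic subunit of the core particle, differed by 0.42 ± 0.08. Trim2 and Trim3 are ubiquitin ligases of neurons. Trim2 had 7.54, 7.77 and 8.11 in HA and 6.94, 7.16 and 7.47 in LA, and Trim3 had 7.75, 7.92 and 8.21 in HA and 7.28, 7.51 and 7.63 in LA, differences of 0.59 ± 0.07 and 0.45 ± 0.05. Ndfip1, an adaptor of Nedd4 ligases and among the brightest members, differed by 0.43 ± 0.06.

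Of the mitochondrial genes, 10 had 11 members between them. Ndufb10, an accessory subunit of complex I of the respiratory chain, had 8.79, 9.10 and 9.26 in HA and 7.75, 8.12 and 8.32 in LA, a difference of 1.01 ± 0.08. Complex II was represented by Sdhc, its membrane anchor, with a difference of 0.80 ± 0.08, and by Sdhb, its iron-sulphur subunit, with 9.56, 9.63 and 9.83 in HA and 9.09, 9.24 and 9.35 in LA (0.43 ± 0.05). Acaa2, the thiolase of mitochondrial fatty acid oxidation, had 7.29, 7.38 and 7.61 in HA and 6.51, 6.70 and 6.82 in LA (0.75 ± 0.05) and was detected on 4 LA arrays. Surf1, an assembly factor of complex IV, had 8.09, 8.28 and 8.44 in HA and 7.64, 7.84 and 8.02 in LA (0.46 ± 0.05). Pdhb, a subunit of pyruvate dehydrogenase, had 9.33, 9.49 and 9.77 in HA and 8.97, 9.04 and 9.29 in LA (0.41 ± 0.06). The mitochondrial ribosomal protein Mrps10 had 2 members, with differences of 0.60 ± 0.07 and 0.42 ± 0.04. Mdh2, the malate dehydrogenase of the citric acid cycle, Sod2, the superoxide dismutase of the matrix, and Ptcd3, which binds the mitochondrial ribosome, differed by 0.57 ± 0.06, 0.43 ± 0.06 and 0.42 ± 0.07.

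Sugar, lipid and other metabolism held 17 members in 15 genes. Pgm1, a phosphoglucomutase, Aldoa, an aldolase of glycolysis and the brightest member by its lowest HA array, and Tkt, the transketolase of the pentose phosphate pathway, differed by 0.74 ± 0.06, 0.43 ± 0.05 and 0.47 ± 0.06. Tkt had 9.79, 9.88 and 10.17 in HA and 9.23, 9.46 and 9.74 in LA. Lpl, the lipoprotein lipase, and Pla2g7, which breaks down platelet-activating factor, differed by 0.69 ± 0.09 and 0.56 ± 0.07. The acyl-CoA thioesterase Acot7, abundant in neurons, had 10.62, 10.83 and 10.99 in HA and 9.94, 10.30 and 10.46 in LA (0.57 ± 0.06). Gpx8, a glutathione peroxidase homologue of the endoplasmic reticulum, had 7.84, 8.02 and 8.09 in HA and 7.22, 7.55 and 7.82 in LA (0.45 ± 0.06). All 3 probes of Abhd1, an alpha/beta hydrolase, were members, with differences of 0.62 ± 0.06, 0.60 ± 0.06 and 0.54 ± 0.06. Bcat1, the cytosolic aminotransferase of branched-chain amino acids, had 9.55, 9.65 and 9.76 in HA and 9.15, 9.21 and 9.39 in LA (0.41 ± 0.04), and the peroxisomal thiolase Acaa1a had 9.99, 10.16 and 10.27 in HA and 9.63, 9.78 and 9.83 in LA. Car2, a carbonic anhydrase, Ephx1, the microsomal epoxide hydrolase, Dhdh, a dihydrodiol dehydrogenase, Abhd3 and Sccpdh had differences of 0.58 ± 0.06, 0.48 ± 0.04, 0.54 ± 0.05, 0.51 ± 0.07 and 0.45 ± 0.05.

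Genes of the cytoskeleton, the centrosome and cilia had 10 members. Ccp110 caps the centriole and restrains the growth of a cilium, and had 8.77, 8.96 and 9.12 in HA and 7.83, 8.01 and 8.25 in LA (0.92 ± 0.06). Kif3a, a motor subunit of the kinesin that carries cargo along cilia, had 8.19, 8.62 and 8.87 in HA and 7.49, 7.70 and 7.85 in LA (0.86 ± 0.09). Ift22, of the same ciliary transport, differed by 0.44 ± 0.06. Add1, an adducin that caps actin filaments, had 8.92, 9.17 and 9.39 in HA and 8.35, 8.44 and 8.81 in LA (0.65 ± 0.06). Nudc, which works with dynein, had 8.79, 8.97 and 9.21 in HA and 8.07, 8.43 and 8.71 in LA (0.56 ± 0.08). Dpysl3, a collapsin response mediator of growth cones, Katnal1, a microtubule-severing protein, Cnn3 and Pls3, which bind actin, and the tubulin Tubb4b differed by 0.79 ± 0.08, 0.50 ± 0.08, 0.50 ± 0.07, 0.44 ± 0.05 and 0.41 ± 0.05.

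At the synapse and in receptor signalling, Rasgrp1, an activator of Ras that responds to diacylglycerol and calcium, had 8.96, 9.27 and 10.003 in HA and 7.98, 8.35 and 8.79 in LA (0.97 ± 0.13). Cacng5, an auxiliary subunit of AMPA receptors, had 7.54, 7.79 and 7.98 in HA and 7.07, 7.13 and 7.34 in LA (0.58 ± 0.04). Gnas, the stimulatory G protein subunit, had 10.85, 11.11 and 11.33 in HA and 10.16, 10.67 and 10.77 in LA (0.50 ± 0.08). Napa and Syt11 act in membrane fusion and vesicle traffic. Napa had 9.15, 9.35 and 9.40 in HA and 8.73, 8.87 and 9.06 in LA (0.45 ± 0.05), and Syt11 had 8.72, 8.92 and 9.06 in HA and 8.37, 8.49 and 8.61 in LA (0.41 ± 0.05). Plppr4, a protein of glutamatergic synapses, Hapln4, a link protein of the matrix around neurons, Calm2, a calmodulin gene, Shisa4 and Nsg2, a neuronal endosome protein, differed by 0.71 ± 0.07, 0.65 ± 0.08, 0.51 ± 0.08, 0.56 ± 0.06 and 0.42 ± 0.06.

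Among 12 genes of the nucleus, of RNA and of the ribosome, Ercc5, the endonuclease of nucleotide excision repair that cuts 3′ of a lesion, had 7.55, 7.61 and 7.69 in HA and 6.44, 6.65 and 6.75 in LA (0.99 ± 0.04), a wide gap on a dim probe that 4 LA arrays detected. Dcp1b, a cofactor of mRNA decapping, had 8.75, 8.90 and 9.04 in HA and 7.83, 8.09 and 8.29 in LA (0.83 ± 0.06). Grwd1, of ribosome assembly, had 7.58, 7.81 and 7.92 in HA and 6.76, 6.91 and 7.30 in LA (0.81 ± 0.06). Hnrnpa1 and Elavl2 bind RNA. Hnrnpa1 had 9.001, 9.05 and 9.41 in HA and 8.34, 8.59 and 8.83 in LA (0.57 ± 0.07), and Elavl2, a neuronal family member, had 9.49, 9.55 and 9.73 in HA and 8.73, 9.01 and 9.30 in LA (0.56 ± 0.07). The ribosomal protein gene Rpl27a had 9.47, 9.68 and 9.80 in HA and 8.94, 9.25 and 9.41 in LA (0.42 ± 0.06). The RNA-binding Pcbp2 had 10.38, 10.60 and 10.83 in HA and 10.13, 10.18 and 10.30 in LA, and the histone H2bc15 had 8.26, 8.40 and 8.72 in HA and 7.82, 8.02 and 8.23 in LA. Smarcb1, of the SWI/SNF chromatin remodelling complex, Ssbp4, Rps15a and Pgbd5 differed by 0.60 ± 0.07, 0.55 ± 0.07, 0.55 ± 0.07 and 0.40 ± 0.06. Hnrnpa1, Rpl27a, Rps15a, Tubb4b, Calm2, Aldoa and H2bc15 have close relatives or processed copies in the mouse genome, and whether their probes also read these was not tested.

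Immune genes had 4 members. C1qc, a chain of the first complement component, and Trem2, a receptor of microglia, differed by 0.50 ± 0.06 and 0.42 ± 0.05. B2m, the light chain shared by MHC class I molecules, had 10.23, 10.45 and 10.66 in HA and 9.77, 10.05 and 10.19 in LA (0.41 ± 0.07), and the cathepsin Ctsh differed by 0.65 ± 0.06. Of the remaining genes, Pdrg1, a prefoldin-like protein regulated by DNA damage, was detected on 0 of the 8 LA arrays. Its log2 signal was 7.24, 7.66 and 8.27 in HA and 6.38, 6.496 and 6.57 in LA, and with the limit of detection in place of the LA level it was at least 2.05-fold higher in HA. Cbwd1, also below detection on all LA arrays, was at least 1.13-fold higher in HA. Such a bound sets the HA mean against the mean, over LA arrays, of the higher of the probe's own value and the lowest detected signal. Bok, a BCL2 family member and a marker of the hippocampal CA3 field, had 10.20, 10.32 and 10.47 in HA and 9.43, 9.63 and 9.998 in LA (0.66 ± 0.05), and Nubp2, of iron-sulphur cluster assembly, had 7.55, 7.86 and 8.03 in HA and 7.17, 7.30 and 7.45 in LA (0.55 ± 0.05). Calml4, Manbal and Atxn10 differed by 0.66 ± 0.06, 0.57 ± 0.07 and 0.48 ± 0.06. Gm266, detected on 6 LA arrays, differed by 0.51 ± 0.06. Gm5148 was detected on 1 of the 8 LA arrays, so its LA level lay mostly below detection, with measured means of 7.10 in HA and 6.55 in LA. Of the 4 probes with no symbol, ILMN_2773211 had 9.37, 9.68 and 9.99 in HA and 8.02, 8.54 and 9.06 in LA (1.08 ± 0.10), and ILMN_3129372, ILMN_2808946 and ILMN_1253348 differed by 0.59 ± 0.06, 0.54 ± 0.07 and 0.43 ± 0.04.

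Whether the line difference was seen by other probes of the same genes was tested next. Other probes are those that did not meet the rule, since a probe that met it is a member. The rule thus holds down the differences and calls of these other probes. Of the 91 member genes, 41 had 68 other probes, 57 of which, in 35 genes, were detected on at least 4 arrays. A probe was called at an adjusted p under 0.05 (limma, HA minus LA averaged over desipramine and saline, Benjamini-Hochberg over all 25697 probes). Of the 57 detected probes 24 were called higher in HA, 1 was called lower and 32 were not called, and 47 of 57 had a difference above 0. Over all probes 5.86% were called higher and 5.91% lower in HA, and over the 14583 probes detected on at least 4 arrays 10.1% were called higher and 10.1% lower. Scaling all arrays to the same median instead gave 2578 calls higher and 433 lower in HA, against 1507 and 1518. The median difference of the 57 was 0.14 (range -0.33 to 0.49), against 0.004 over all detected probes and 0.55 for the members themselves. By gene, all other detected probes were called higher in HA for 9 genes, some of them for 7 and none for 18, and for 1 gene the call was opposite. Some of the probes not called were dim, where a difference is understated. For 56 genes no probe other than a member was detected on at least 4 arrays, and 50 genes had no such probe at all. Sema5a, Abhd1 and Mrps10 are among the 56, although each had 2 or more member probes. Which transcript each probe reads was not tested, as probe sequences were not used here. For the same reason it was not tested whether the lines differ in sequence under a probe. Such a difference could also part the probes of a gene or set a member's lines apart.

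Genes whose probes moved together included Acaa2, with 3 other probes called higher in HA by 0.24 ± 0.05, 0.28 ± 0.06 and 0.29 ± 0.04 (adjusted p = 0.00166, 0.00827 and 0.000277), all smaller than the member's own difference of 0.75. Both other probes of Gpx8 were called, with 0.42 ± 0.06 and 0.36 ± 0.09 (adjusted p = 0.000207 and 0.0133), close to the member's 0.45. Fgf10 gave 0.34 ± 0.05 and 0.16 ± 0.04 (adjusted p = 0.000101 and 0.0102), and Fgf1 0.22 ± 0.04 (adjusted p = 0.00261). Dennd10 gave 0.39 ± 0.07 and 0.29 ± 0.06, Bcat1 0.28 ± 0.05 and 0.25 ± 0.07, Vamp8 0.27 ± 0.05 and Nudc 0.32 ± 0.05, with adjusted p between 0.00042 and 0.0207. In Nubp2 a probe was called with 0.49 ± 0.07 (adjusted p = 9.83e-05), while the other, at 0.06 ± 0.05, was not. Acot7, Cd151, Gnas, Napa, Pqlc3, Sdhb and Cacng5 had at least 1 probe called. Of these, Acot7 was called higher in HA on 2 of 3 other probes, and the third, at 0.14 ± 0.05, was not called (adjusted p = 0.0645). Of all 25 other probes called higher, detected or not, 22 kept the call whichever array was left out. The call of a probe of Pqlc3 was lost without HA desipramine replicate 2 or HA saline replicate 2 (adjusted p = 0.0502 and 0.0528). That of the called Cacng5 probe was lost without HA desipramine replicate 2, HA saline replicate 3, LA desipramine replicate 3 or 4 or LA saline replicate 3 (adjusted p = 0.0507 to 0.0605). That of Sdhb was lost without HA desipramine replicate 2 or 3, HA saline replicate 1, 2 or 4, LA desipramine replicate 1, 2 or 3 or LA saline replicate 1, 2 or 3 (adjusted p = 0.0532 to 0.0885). Of the other probes, 5 were higher in every HA array but by 0.4 or less, in Acaa2, Acot7, Dennd10 (2 probes) and Pqlc3.

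The largest members were mostly not among these genes. Psmd12, with a member difference of 1.19, had another probe at 0.06 ± 0.08 (adjusted p = 0.747), with means of 7.25 in HA and 7.19 in LA. Rasgrp1, with a member difference of 0.97, had a far brighter probe with means of 13.01 in HA and 13.001 in LA, a difference of 0.01 ± 0.07 (adjusted p = 0.962). The brighter of the other probes of Ccp110 differed by -0.04 ± 0.05 (adjusted p = 0.691) and that of Kif3a by 0.13 ± 0.06 (adjusted p = 0.226), against 0.92 and 0.86 for their members. In each of these 4 genes a probe with a large difference stood beside one whose lines did not pass the test. Syt11 had 2 bright probes at 0.01 ± 0.05 and 0.03 ± 0.09, and Pdhb, Tkt, Surf1, Dcp1b, Grwd1, Hnrnpa1, Elavl2, Rpl27a, Bok, B2m and Trim3 had no other detected probe called. Of these genes, nearest to a call were B2m at 0.24 ± 0.08, Bok at 0.22 ± 0.07 and Grwd1 at 0.17 ± 0.06 (adjusted p = 0.0623, 0.0703 and 0.0806). Below 0 were the probes of Trim3, at -0.0995 ± 0.05 and -0.0002 ± 0.05, and a probe of Tkt, at -0.0066 ± 0.04. Several of the probes not called were dim, where a difference is understated. Their means in HA and LA were 6.62 and 6.62 for Rpl27a (detected on 5 arrays), 6.85 and 6.79 for Hnrnpa1 and 6.89 and 6.80 for Dcp1b. The 2 of Tkt had 6.89 and 6.85, and 6.72 and 6.73, and the second of Trim3 had 6.68 and 6.68. The 3 other probes of Add1 were at -0.19 ± 0.07, -0.09 ± 0.09 and -0.08 ± 0.04, and that of Trim2 at -0.20 ± 0.09, all below 0 and none called (adjusted p = 0.0779 to 0.601). With 1 array left out, the adjusted p (limma) of the Add1 probe at -0.19 fell as low as 0.00446. Those of the B2m, Bok and Grwd1 probes nearest to a call fell as low as 0.0157, 0.0496 and 0.0308.

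In Ercc5 the other probe was called in the direction opposite to the member. Its member was higher in HA by 0.99, while its other probe had means of 8.19 in HA and 8.52 in LA, was lower in every HA array than in any LA array and differed by -0.33 ± 0.04 (adjusted p = 2.27e-05). That probe was the brighter of the pair and was detected on all 16 arrays.

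The members' genes were then placed on chromosomes by the annotation of GRCm38.p6, with each of the 9915 genes detected on at least 4 arrays counted 1 time. They lay on 19 of 20 chromosomes and made up 0.918% of the detected genes. Chromosome 18 held 6 of 260 (2.31%), which are Fgf1, Ndfip1, Acaa2, Rab18, Abhd3 and Dpysl3. Chromosome 1 held 8 of 504 (1.59%) and chromosome 17 held 7 of 481 (1.46%), while chromosome 10 held 1 of 490 (0.204%) and chromosome 16 held 0 of 308. Each of these counts is small, and no test of a chromosome was made.

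Of the 91 member genes 20 (21.98%) lay within 1 Mb of another member gene, against 1368 of 9824 (13.9%) of the other detected genes within 1 Mb of a member. They formed 10 pairs. On chromosome 1 the pair was Ecrg4 and Ercc5, on chromosome 11 Psmd12 and Cacng5, and on chromosome 17 both Ndufb10 with Nubp2 and Mrps10 with Trem2. The other pairs were Ptcd3 with Vamp8, Dhdh with Grwd1, Rps15a with Ccp110, Hapln4 with Ssbp4, Pcbp2 with Hnrnpa1, and Ndfip1 with Fgf1. Pairs joined large differences in several cases, such as 1.42 for Ecrg4 and 0.99 for Ercc5, and 1.01 for Ndufb10 and 0.55 for Nubp2.

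The other genes within 1 Mb of a member moved in both directions. Of their 1867 probes 9.59% were called higher in HA and 11.9% lower, against 9.31% and 9.89% of the 11721 probes of genes farther away. Probes that were lower in every HA array were 55 (2.95%) near members and 1.79% elsewhere, and probes higher in every HA array were 1.02% and 0.921%. Member genes were left out of both sets, so every member probe, higher in HA by the rule, was taken out of these counts. No matching rule took out genes lower in HA, so the higher and lower shares cannot be set against each other. Enpp5, an ectonucleotide phosphodiesterase family member near Pla2g7, had means of 8.58 in HA and 10.94 in LA, and Casp9, the initiator caspase of the mitochondrial route to apoptosis, near Sdhb, had 6.67 in HA and 8.70 in LA. Tsc2, the tuberin of the complex that restrains mTORC1, lies near Ndufb10 and Nubp2 and was lower in HA on 2 probes, with differences of -0.88 and -0.50. Around these members, a gene higher in every HA array lay close to one lower in every HA array.

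Other genes of the same gene families were counted as the nearest thing to a pathway, with no test of a family as a whole. These are genes with no member probe, so the rule holds down their calls higher in HA. Their calls stand beside the 5.86% called higher and 5.91% called lower over all probes, and most probes of each family were not called. Beside Mrps10, 8 of 39 probes of other small-subunit genes of the mitochondrial ribosome were called higher in HA and 0 lower (median 0.09), with Mrps26 at 0.34 and Mrps18b at 0.30 among them. Beside Psmb6, 5 of 14 probes of other core proteasome genes were called higher and 0 lower (median 0.10), which are 3 of Psmb7 (0.27 to 0.41), 1 of Psmb1 (0.39) and 1 of Psmb5 (0.24). Beside Psmd12, 3 of 21 probes of the regulatory particle were called higher and 0 lower, those of Psmd11 (0.35), Psmd14 (0.26) and Psmd10 (0.25). Beside Tubb4b, 6 of 13 tubulin probes were called higher and 0 lower, 4 of them of Tubb2b (0.17 to 0.35). These 4 families had calls in the higher direction alone under every scaling tried, with 3 to 5 for Tubb, 5 for Psmb, 2 to 5 for Psmd and 7 to 15 for Mrps under scalings other than the quantile ones. Median scaling gave 2578 calls higher and 433 lower over all probes, so a lack of lower calls under it says little.

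Beside Psmd12 the share called higher was 14.3%, or 15.8% of its 19 detected probes, against 10.1% of all detected probes. Beside Fgf1 and Fgf10, 3 of 28 probes (10.7%) were called higher, those of Fgf12 (0.31), Fgf13 (0.35) and Fgf9 (0.19), and 0 lower, and beside Ndufb10 1 of 11 (9.09%) was called higher and 0 lower. In the families of Kif3a, Sema5a, Rps15a and Rpl27a calls were lower or divided. Further families, not described here, had calls higher alone, lower alone, both or none. Beside Kif3a, 0 of 46 kinesin probes were called higher and 5 lower, in Kif3c, Kif5a and Kif1b, although under median scaling 1 was higher and 0 lower. Beside Sema5a, 1 of 32 semaphorin probes was called higher (Sema6d) and 4 lower (Sema3a, Sema4a, Sema4b and Sema4f), although under median scaling 1 was lower. Beside Rps15a and Rpl27a the ribosomal protein probes were divided, with 3 higher and 3 lower of 35 and 1 higher and 2 lower of 47, and under median scaling 2 and 7 were higher and 0 lower.

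Cell type markers were read beside the members. Member genes were left out of the counts and medians, as the rule had chosen them on the same values. Of 10 choroid plexus genes other than the member Calml4, 9 were called higher in HA and 0 lower (median 0.66), among them the transthyretin gene Ttr (0.92) and Clic6 (1.12). Their summed signal, with Calml4 included, was 25339 to 28121 on desipramine-labelled and 28424 to 30272 on saline-labelled HA arrays. On LA arrays it was 5839 to 12699 where the label was desipramine and 17899 to 29672 where it was saline, so that the saline-labelled arrays of the lines overlapped. Ecrg4 followed this sum across the 16 arrays with r = 0.916, with 0.491 over the 8 HA and 0.933 over the 8 LA arrays, as a description over arrays that share their groups. Within lines, 3 of the 99 members had r over 0.7 with it, Ecrg4 (0.906), Tmem87a (0.789) and Gpx8 (0.742), against 0.727% of detected probes. At the negative end stood Tor1b (-0.73), both probes of Sema5a (-0.698 and -0.617) and Hapln4 (-0.625). The share of detected probes at that end was not tested. This r was computed within lines and not within treatment labels. Within each line the sum did not overlap between the labels, so a probe's difference by label can enter its r. For the members as a whole the median of this r was -0.06.

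Of 15 thalamus and habenula genes, 8 were called higher in HA and 0 lower (median 0.31), with a summed signal of 3932 to 8728 in HA and 3165 to 6816 in LA, and none is a member. Of 13 genes of leptomeninges and fibroblasts, 5 were called higher and 0 lower, although the median was -0.03. The 5 are Igfbp2 (0.78), Ptgds (0.77), Slc13a4 (0.47), Igf2 (0.46) and Dcn (0.26), and the collagen genes Col1a2 and Col3a1 were detected on 0 arrays. The sum was 6766 to 10411 in HA and 4823 to 9326 in LA. Of 14 oligodendrocyte genes, 3 were called higher, Cnp (0.38), Mog (0.34) and Olig1 (0.26), and 0 lower (median 0.05), with sums of 30954 to 42662 in HA and 30790 to 41925 in LA. Of 9 microglial genes other than the members C1qc and Trem2, 2 were called higher, Tyrobp (0.21) and Tmem119 (0.20), and P2ry12 was lower (-0.65). The microglial sum, members included, was 2271 to 2662 in HA and 2362 to 2732 in LA. Of 12 genes of hippocampal principal cells other than the member Bok, 2 were called higher, Slc17a7 (0.38) and Wfs1 (0.37), and 1 lower, C1ql2 (-0.93). C1ql2 had means of 10.20 in HA and 11.13 in LA. The sums of this list, Bok included, were 12102 to 15294 in HA and 11063 to 15058 in LA. The other 6 cell type lists had 0 to 2 genes called higher and 0 to 3 lower. The part of tissue content in the members' differences was not tested beyond the values given here.

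Desipramine was examined last, in the contrasts the rule did not use, although values that do not overlap between lines limit the spread within each line. The directions below follow the labels of the arrays, and for Ecrg4 and for choroid plexus genes in LA mice they run opposite to those the study gives. A member was called at an adjusted p under 0.05 and a difference over 0.5 in size (limma). In HA 0 of 99 members were called, as were 0.121% of all probes, and 1 passed on the adjusted p alone, as did 0.327%. At an unadjusted p under 0.05 there were 17 (17.2%), 7 higher and 10 lower with desipramine, against 13.1% of detected probes. In LA 1 of 99 was called, against 0.0311% of all probes and 0.0623% on the adjusted p alone, and 19 (19.2%) had an unadjusted p under 0.05, 11 higher and 8 lower, against 12.3% of detected probes. For the difference between the lines in their desipramine effect, 0 of 99 passed, against 0.00389% of all probes, and 16 (16.2%) had an unadjusted p under 0.05, against 10.2% of detected probes.

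The member called in LA was Ecrg4. Its log2 signal was 7.63, 7.26, 7.50 and 7.62 on the desipramine-labelled LA arrays and 9.12, 8.94, 8.06 and 8.50 on the saline-labelled ones. It fell in LA by 1.15 ± 0.17 (SE, adjusted p = 0.0208 by limma), with no overlap between the 4 and 4 arrays. In HA it had 9.25, 9.47, 9.43 and 9.48 with desipramine and 9.37, 9.90, 9.41 and 9.66 with saline, a difference of -0.18 ± 0.17. The difference between these effects was 0.97 (adjusted p = 0.269). The choroid plexus sum moved with it, as given above. The call was lost without LA desipramine replicate 2 (adjusted p = 0.0691) or replicate 3 (0.059) and without LA saline replicate 2 (0.0673), and it was lost with the LA arrays alone (0.245) and under median scaling (0.857). Without LA desipramine replicate 2 it was Tmem106b that was called in LA, with -0.65 (adjusted p = 0.0403), against -0.43 with all arrays. Without LA saline replicate 3 the difference between the lines passed for Ecrg4, at 1.17 (adjusted p = 0.0421).

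In HA, Cacng5 passed on the adjusted p alone. It had 7.57, 7.55, 7.54 and 7.70 on the desipramine-labelled HA arrays and 7.98, 7.87, 7.92 and 7.94 on the saline-labelled ones, and fell by 0.34 (adjusted p = 0.0234 by limma). In LA it had 7.14 ± 0.03 with desipramine and 7.21 ± 0.14 with saline (SD, n = 4 each), and the call in HA was lost without HA desipramine replicate 1, 2 or 3 and without HA saline replicate 1, 3 or 4, with an adjusted p of 0.0636 to 0.0773. Of its 2 other probes, the brighter also fell in HA, with 8.08 ± 0.05 with desipramine and 8.32 ± 0.05 with saline (adjusted p = 0.0317 by limma). The dimmer had 6.62 ± 0.08 and 6.65 ± 0.09 (adjusted p = 0.962). Both probes of Sema5a had higher values with desipramine in LA, by 0.68 and 0.50, which did not pass (adjusted p = 0.20 and 0.22). In HA the same probes differed by -0.11 and -0.07, and the difference between the lines did not pass (adjusted p = 0.455 and 0.493).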

How the data were processed

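Hippocampal RNA of 16 pools was read on 1-colour arrays, and each array took its group from its sample label. The authors deposited intensity values on a linear scale, 1 per probe on each array, before any normalization. The p-value beside each was deposited as the detection p against negative controls. The log2 values come from these signals and were computed by the authors by log2 transformation and quantile normalization with beadarray and limma, and they chose the members and entered all tests. Set against quantile normalization of the signals done here, they differed by at most 0.046. Every one of the 16 columns matched the array of the same sample best, so the scale and the matching of columns were settled. Both sets of values carry the same sample labels, so this cannot show whether the labels themselves are right. Their median was 6.69 on each array. Quantile normalization gives all arrays the same distribution, so a change shared by most transcripts is not visible.

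All 25697 probes were fitted in R 4.3.3 with limma 3.58.1 (lmFit and eBayes), with 1 mean for each of the 4 groups. HA minus LA was averaged over desipramine and saline, and desipramine minus saline was taken in each line. The p-values were adjusted by Benjamini-Hochberg over all probes, and the fit was tested on simulated data. Pools are separate mice per the study's methods. The members, the gene lists and their grouping by role were chosen with earlier results of these data known. Every member with a symbol is named. Values by line are given for the 15 largest, for those with another detected probe, for those passing a desipramine contrast and for those at the size limit. Members were sorted into 10 roles from general knowledge. A single gene symbol was given for 23978 probes and no symbol for 1719, and the GRCm38.p6 annotation held the gene IDs of 23962. No genome build is named in the files, so no gene positions are printed beyond the chromosome and the promoter windows of that assembly. Alternatives were other scalings, neqc background correction, other size limits, a detection filter, array weights, a replicate block, single lines or treatments and each array left out.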

Additional observations from a re-analysis of the deposited data

Results flagged for a closer look

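Each group of 4 arrays was searched for an array far from the other 3 in 46 members, 184 groups in all, and 13 had one, where chance gives about 1 in 20. Among HA desipramine arrays, replicate 3 was low for Tmem87a at 8.29 (the others 8.59 to 8.64) and high for Dennd10 at 8.64 (8.22 to 8.28), and replicate 4 was high for Cacng5 at 7.7 (7.54 to 7.57). Among HA saline arrays, replicate 4 was low for Add1 at 8.92 (9.14 to 9.18), replicate 1 high for Hnrnpa1 at 9.41 (9.02 to 9.07), and replicate 2 low for Napa at 9.15 (9.35 to 9.36) and high for H2bc15 at 8.58 (8.28 to 8.32). Among LA desipramine arrays, replicate 4 was low for Gnas at 10.48 (10.66 to 10.68), replicate 3 high for Trim3 at 7.56 (7.5 to 7.51), replicate 2 high for Pdhb at 9.23 (8.97 to 8.99) and replicate 1 low for B2m at 9.77 (10.01 to 10.06). Among LA saline arrays, replicate 3 was low for Grwd1 at 6.76 (6.9 to 6.93) and replicate 4 low for Tkt at 9.23 (9.45 to 9.49). All values are log2 signals.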

How the results depend on the processing

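The rule picked 99 probes, and 96 (all among the 99) with quantile normalization repeated from the signals. With median scaling it picked 126, of which 65 were shared, with neqc background correction 178, which held all 99, with a size limit of 0.3 it picked 163 and with 0.5 it picked 63. All 99 members stayed above 0 under these scalings, and the difference moved by over 1 SD for 65 of them under median scaling, 52 under neqc and 8 on the arrays of either treatment alone. Median scaling raised the median of detected probes by 0.10, against 0.004, and gave 2578 calls higher and 433 lower in HA over all probes, against 1507 and 1518. Of the other probes of member genes, 25 were called higher in HA, undetected ones included, and 16 on saline arrays alone and 10 on desipramine arrays alone, both chosen after seeing the data, where Cacng5 turned to -0.0132 on the probe with 0.12. With 1 array left out the rule picked 96 to 116 probes, 22 to 26 other probes were called, 0 members were called for desipramine in HA, 0 to 1 in LA and 0 to 1 for the difference between lines. The call in LA fell to 0 under median scaling and with LA arrays alone, and on the adjusted p alone 1 passed in HA. Replicate numbers did not pair the arrays, since same-numbered deviations correlated with r of -0.386 to 0.237. With the replicate block 25 other probes were called, 24 of them shared, and 0, 1 and 0 members passed in HA, in LA and for the difference, so the block moved no count. Fits on fewer arrays have less power to call a difference, although with 1 array left out up to 26 other probes were called, against 25. The causes of these changes were not tested. Precision is limited by 4 pools a group, and probes near the detection limit understate differences.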
